A study of Mus musculus with 12 samples.

Results

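The collagen crosslinking and folding enzymes described here are 10 genes: the lysyl oxidases Lox, Loxl1, Loxl2 and Loxl3, the lysyl hydroxylases Plod1 and Plod2, the prolyl 4-hydroxylase alpha subunits P4ha1, P4ha2 and P4ha3, and the collagen chaperone Serpinh1. They were chosen by name and measured in mouse pancreas tumours on 12 expression arrays, 1 tumour per array. A gene was measured by the probe set that the platform annotation assigned to it alone. Where a gene had several such probe sets, that of the highest mean was taken. This gave values for 9 of the 10 enzymes, among 30142 genes in all. The only probe set of Loxl2 is also assigned to Mir6950 and Gm21451, so Loxl2 has no value of its own.

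All 12 mice were PKT. PKT names a mouse model of pancreatic cancer, and the labels give the name alone, without its alleles. In 1 line TK was tied to FAP (fibroblast activation protein, encoded by Fap), and in the other to aSMA (alpha smooth muscle actin, encoded by Acta2). TK is a thymidine kinase, which makes cells that carry it sensitive to ganciclovir. The 4 groups of 3 mice each were PKT FAP-TK control tumours without depletion, PKT FAP depleted tumours, PKT aSMA-TK control tumours without depletion, and PKT aSMA depleted tumours. The treatment label names ganciclovir at 50 ug per kg for every tumour, so whether the controls received it is not clear. The sources used here give no promoter for TK and no age or sex of the mice. The TK lines ask what a tumour's expression looks like once FAP-positive or aSMA-positive cells are removed.

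Fibrillar collagen is made strong in 2 stages. Inside the cell, prolyl 4-hydroxylases add the hydroxyl groups that keep the triple helix stable, lysyl hydroxylases modify lysines that later take part in crosslinks, and Hsp47, the product of Serpinh1, holds the folded procollagen in the endoplasmic reticulum. Outside the cell, lysyl oxidases convert lysines and hydroxylysines to aldehydes, from which covalent crosslinks form in collagen and elastin. Fibroblasts are the main source of these proteins in the desmoplastic stroma of pancreatic tumours. Prolyl and lysyl hydroxylases need oxygen, iron, 2-oxoglutarate and ascorbate, and P4ha1, P4ha2, Plod2 and Lox are known targets of the hypoxia-inducible factors.

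Promoter sequence was used for 5 of the 10 enzymes in the RefSeq table of assembly GRCm38.p6, from 250 bases before to 50 bases after a transcript start. The core of the hypoxia response element, ACGTG on either strand, occurred in 3 of these 5 windows, those of Serpinh1, P4ha1 and P4ha2, and in 19.6% of all 32851 windows of the same length. These 3 are shown because they hold this motif, and the hypoxia genes of these tumours are described further on. Lox was not among the 5 enzymes with a window. Each is written 5′ to 3′ on the strand of its gene, with ACGTG or its reverse complement CACGT in capitals.
Serpinh1: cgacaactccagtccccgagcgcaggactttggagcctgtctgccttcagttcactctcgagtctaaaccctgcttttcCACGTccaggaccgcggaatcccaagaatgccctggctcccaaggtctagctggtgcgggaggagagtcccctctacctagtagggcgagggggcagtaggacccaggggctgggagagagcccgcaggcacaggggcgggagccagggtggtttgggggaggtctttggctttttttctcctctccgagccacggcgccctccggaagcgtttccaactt
P4ha1: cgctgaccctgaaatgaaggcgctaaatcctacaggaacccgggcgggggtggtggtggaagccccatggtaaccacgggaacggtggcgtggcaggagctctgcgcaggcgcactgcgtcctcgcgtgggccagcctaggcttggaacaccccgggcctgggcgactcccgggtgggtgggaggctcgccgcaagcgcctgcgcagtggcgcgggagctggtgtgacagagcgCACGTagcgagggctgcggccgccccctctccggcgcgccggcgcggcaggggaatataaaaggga
P4ha2: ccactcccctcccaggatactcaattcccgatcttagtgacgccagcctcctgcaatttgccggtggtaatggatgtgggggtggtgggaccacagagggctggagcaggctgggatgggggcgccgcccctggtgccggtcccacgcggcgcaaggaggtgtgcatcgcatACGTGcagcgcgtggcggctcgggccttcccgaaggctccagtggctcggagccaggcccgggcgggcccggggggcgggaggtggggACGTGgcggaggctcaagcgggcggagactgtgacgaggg
The Serpinh1 window is chr7:99353190-99353489 on the minus strand, with 1 match that begins 171 bases before the transcript start. The P4ha1 window is chr10:59323046-59323345 on the plus strand, with 1 match that begins 16 bases before the transcript start of the window, which itself lies downstream of the first base of the annotated gene. The P4ha2 window is chr11:54100674-54100973 on the plus strand, with 2 matches, of which 1 begins 78 bases before the transcript start and the other lies after it. The windows of Plod1 and P4ha3 held no match. The GC box GGGCGG on either strand was in all 5 windows, against 35.7% of all windows. The motif CCAAT was in none of the 5 and in 37.4% of all windows. GAANNTTC, a short form of the heat shock element, was in the window of Plod1 and in 7.86% of all windows. A match is a description of letters and shows no binding.

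The arrays differed in quality between the lines, which touches every value given here. The median deposited log2 value lay between 4.52 and 4.78 on the arrays of the FAP line and between 3.98 and 4.15 on those of the aSMA line, and the values were quantile normalized for that reason. The gap between positive and negative control probe sets was 2.69 to 2.99 on 3 arrays, FAP-TK control 1, FAP-TK control 3 and FAP depleted 2, and 4.32 to 4.89 on the other 9. The targeted genes bear on the labels. Fap was at 6.56, 7.31 and 6.53 in FAP-TK controls and 5.52, 5.34 and 6.21 in FAP depleted tumours, without overlap. So were 2.50% of all genes in that direction. The Fap difference was -1.11 ± 0.37 (SE) and was not called by limma. These values are low: the 95th percentile of negative control probe sets was 9.29 to 11.29 on those arrays before normalization. Acta2, not targeted in the FAP line, differed there by -1.69 ± 1.71. Acta2 was at 12.26, 10.85 and 11.12 in aSMA-TK controls and 10.13, 13.86 and 15.28 in aSMA depleted tumours, so it was not lower there, and "aSMA depleted" stands for that label throughout. Of 10 ductal epithelium markers, 9 were above the 95th percentile of negative control probe sets on at least 3 arrays. In bulk RNA, fewer cells of a type and less RNA per cell cannot be told apart.

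Among the enzymes themselves, only Lox was well above the array background. It exceeded the 95th percentile of the negative control probe sets on 10 of 12 arrays, Loxl1 on 3, P4ha1 on 2 and Plod2 on 1, and the other 5 on none. Against the smaller set of 23 background probe sets, 8 enzymes were above the 95th percentile on all 12 arrays, and P4ha3 was on 8. The differences that follow are in log2 units of the normalized values. They are not converted to folds, because the deposited values span 1.64 to 19.93, wider than a 16-bit scanner records.

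No enzyme passed the test in either depletion. In the FAP line, Loxl3 was lower in all 3 FAP depleted tumours than in any control, as were 2.50% of all genes. The other 8 enzymes overlapped between the groups. In the aSMA line, 8 of 9 enzymes had a higher mean in the tumours labelled aSMA depleted, as did 53.2% of all genes. Lox was ahead at 2.23 ± 1.18 (SE) log2 units. Lox and Plod1 were higher there without overlap between the groups, as were 7.43% of all genes. Serpinh1 had a lower mean in both depletions by the probe set used, by differences smaller than their SE. Its other probe set had a higher mean in FAP depleted tumours, by 0.11. With the limma test, 0 of the 9 enzymes were called at an adjusted p under 0.05 in the FAP line and 0 in the aSMA line, and 0 of all 30142 genes were called in either (0.00% in each). At an unadjusted p under 0.05, 1 enzyme (Loxl3) passed in the FAP line, where 3.71% of all genes did, and 0 in the aSMA line, where 4.81% did.

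**Figure D1:**
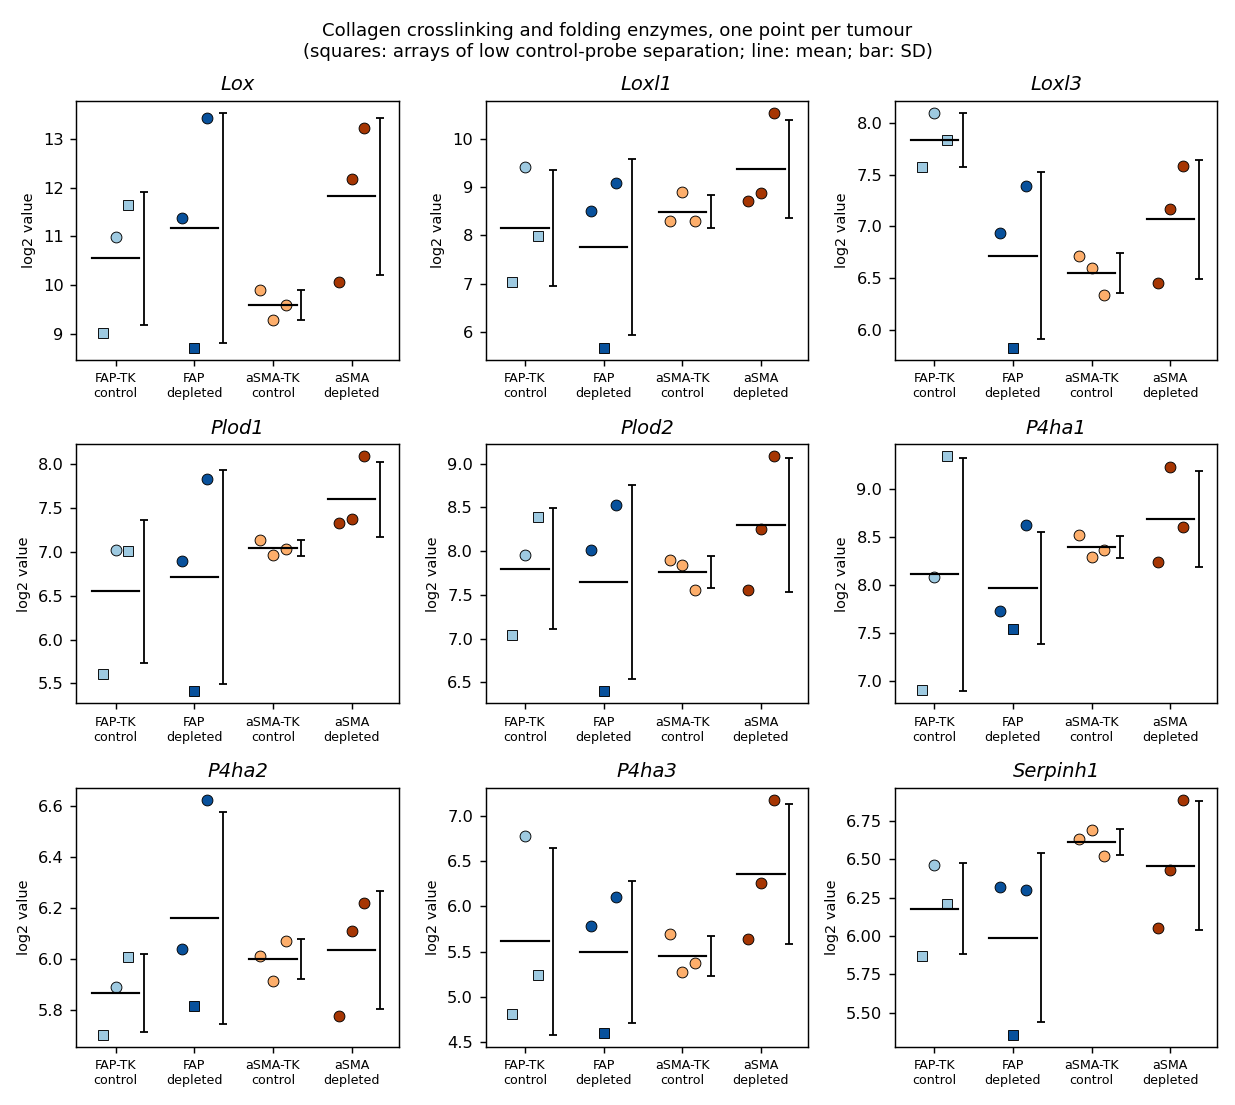
Normalized log2 value of each of the 9 measured enzymes (vertical axes, log2 units) in the 12 tumours, by group. Points are tumours, lines group means, bars the SD (n = 3), and squares the 3 arrays of small control separation. The Loxl3 values of the FAP depleted tumours lie below all FAP-TK control values, and Lox and Plod1 of aSMA depleted tumours lie above all aSMA-TK control values. Of all genes, 2.50% lie below in the FAP line and 7.43% above in the aSMA line without overlap.

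As a list, the enzymes mostly had higher means in the aSMA depleted tumours, and in the FAP line their direction depended on single tumours. In the FAP line, 3 of 9 had a positive difference and 6 a negative one, with a median of -0.14, while 59.9% of all genes had a positive difference and their median was 0.04. The enzymes' median was 0.46 without FAP depleted 2, 0.24 without FAP-TK control 2 and 0.15 without FAP-TK control 3. It was 0.23 with array weights, 0.10 without the 3 arrays of small control separation and 0.13 with the fibroblast markers as a covariate. Of the enzymes, 0 lay above the controls without overlap (5.60% of all genes) and 1 below them (2.50%). In the aSMA line, 8 of 9 had a positive difference, with a median of 0.53, against 53.2% of all genes and a median of 0.01. There 2 enzymes lay above the controls without overlap (7.43% of all genes) and 0 below (5.08%). These counts describe the list and are not a test of it.

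**Figure D2:**
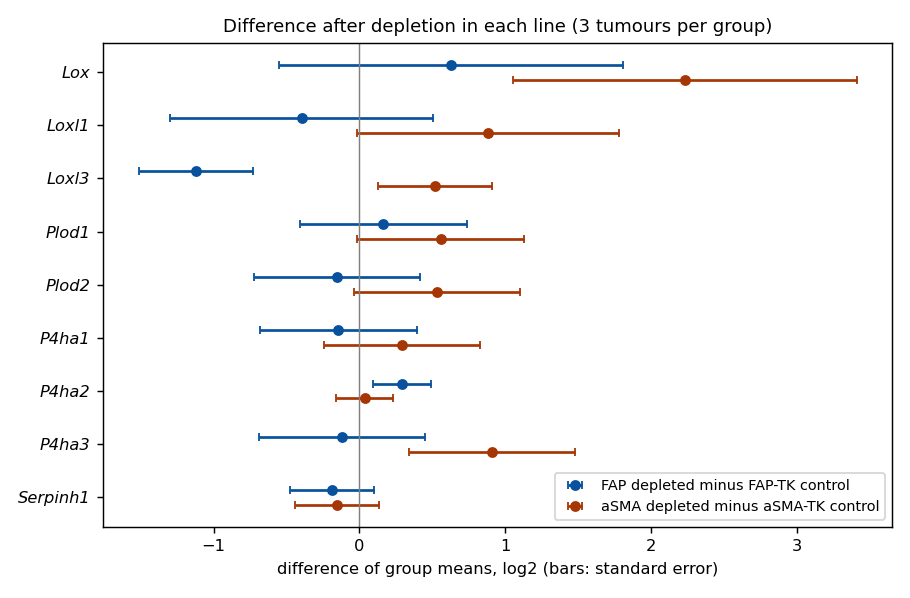
Difference of group means (log2 units, ± SE from limma) for each enzyme, FAP depleted minus FAP-TK control and aSMA depleted minus aSMA-TK control. Loxl3 has the lowest difference in the FAP line and Lox the highest in the aSMA line, and no difference passed the adjusted threshold.

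Lox, which encodes the founding lysyl oxidase that crosslinks collagen and elastin, spanned 4.71 log2 units over the 12 tumours, next to 4.86 for Loxl1, the widest range of the 9. It was at 9.02, 10.99 and 11.64 in FAP-TK controls and 11.39, 8.72 and 13.43 in FAP depleted tumours. The FAP depleted group holds both the lowest and the highest Lox value of all 12 tumours, and the groups overlap. The difference was 0.62 ± 1.18 (exact permutation p = 0.8). Lox stood at 9.90, 9.28 and 9.59 in aSMA-TK controls, against 10.07, 12.17 and 13.21 in aSMA depleted tumours. All 3 of the latter were above all controls, the lowest of them only slightly. The same held for 7.43% of all genes. The difference of 2.23 ± 1.18 gave a limma p of 0.089 and an adjusted p of 0.944. The exact permutation p of 0.1 is the smallest that 3 tumours against 3 allow. Without aSMA depleted 3 the difference was 1.53, and without aSMA depleted 1 it was 3.10. With the non-collagen fibroblast markers as a covariate it was 0.58, an alternative added after the values were seen. The mean of those markers itself did not overlap between these 2 groups.

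Loxl1, an oxidase best known for its part in elastic fibres, was at 7.05, 9.42 and 7.99 in FAP-TK controls and at 8.51, 5.68 and 9.08 in FAP depleted tumours. These groups overlap and FAP depleted 2 is far below the rest, and the difference was -0.40 ± 0.90 (exact permutation p = 0.8). Its values were 8.30, 8.90 and 8.29 in aSMA-TK controls, against 8.71, 8.88 and 10.54 in aSMA depleted tumours. Only aSMA depleted 3 exceeded every control, and the difference was 0.88 ± 0.90 (limma adjusted p = 0.95; exact permutation p = 0.3).

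Loxl3, a related oxidase needed in development of the palate and spine, was the only enzyme without overlap in the FAP line. Its values were 7.58, 8.10 and 7.84 in FAP-TK controls and 6.93, 5.82 and 7.39 in FAP depleted tumours. Every depleted tumour was below every control, which also held for 2.50% of all genes. Loxl3 values are low, above the 95th percentile of negative control probe sets on 0 arrays. The difference was -1.12 ± 0.39, with a limma p of 0.0174 and an adjusted p of 1, and an exact permutation p of 0.1. It was -0.68 without FAP depleted 2, an array of small control separation. It was -0.94 without all 3 such arrays, which leaves FAP-TK control 2 as the only control. Across the leave-one-out fits it ranged from -1.46 to -0.68. Loxl3 was at 6.71, 6.59 and 6.34 in aSMA-TK controls, against 6.45, 7.17 and 7.59 in aSMA depleted tumours. Here the groups overlap, and the difference of 0.52 ± 0.39 gave a limma adjusted p of 0.944.

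The lysyl hydroxylases had smaller differences than Lox. Plod1, which acts on the helical lysines of collagen, was at 5.61, 7.03 and 7.01 in FAP-TK controls and 6.90, 5.41 and 7.83 in FAP depleted tumours, with a difference of 0.16 ± 0.57. These groups overlap, with low values on FAP-TK control 1 and FAP depleted 2. Plod1 was at 7.14, 6.96 and 7.03 in aSMA-TK controls, against 7.33, 7.37 and 8.09 in aSMA depleted tumours. All 3 of the latter were higher than all controls, as for 7.43% of all genes. The difference was 0.56 ± 0.57 (limma adjusted p = 0.95, exact permutation p = 0.1). Plod2, which hydroxylates the telopeptide lysines from which the stable crosslinks of stiff tissue form, was at 7.04, 7.96 and 8.39 in FAP-TK controls and 8.01, 6.40 and 8.53 in FAP depleted tumours. It was at 7.89, 7.85 and 7.56 in aSMA-TK controls, against 7.55, 8.25 and 9.08 in aSMA depleted tumours. Both pairs of groups overlap, and the differences were -0.15 ± 0.57 and 0.53 ± 0.57.

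The prolyl 4-hydroxylase alpha subunits carry the catalytic site of the enzyme. P4ha1, the main subunit in most tissues, was at 6.91, 8.08 and 9.34 in FAP-TK controls and 7.73, 7.54 and 8.63 in FAP depleted tumours. It was at 8.52, 8.29 and 8.37 in aSMA-TK controls, against 8.24, 9.22 and 8.60 in aSMA depleted tumours. The groups overlap in both lines, with differences of -0.14 ± 0.54 and 0.29 ± 0.54. P4ha2 was the steadiest of the enzymes, between 5.70 and 6.62 over the 12 tumours, with the highest value in FAP depleted 3. Its differences were 0.29 ± 0.20 in the FAP line and 0.04 ± 0.20 in the aSMA line.

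P4ha3, the third alpha subunit, was above the background probe sets on the fewest arrays, so its values are the least certain. It was at 4.81, 6.78 and 5.24 in FAP-TK controls and 5.78, 4.61 and 6.10 in FAP depleted tumours, a difference of -0.12 ± 0.57. It was at 5.70, 5.28 and 5.38 in aSMA-TK controls, against 5.64, 6.26 and 7.18 in aSMA depleted tumours. Only aSMA depleted 1 lay among the controls there, and the difference was 0.91 ± 0.57 (limma p = 0.143, adjusted p = 0.944; exact permutation p = 0.2).

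Serpinh1 has 2 probe sets, and they do not give the same picture. The probe set of the higher mean, used here by the rule, was at 5.87, 6.46 and 6.21 in FAP-TK controls and 6.32, 5.35 and 6.30 in FAP depleted tumours. It was at 6.63, 6.69 and 6.52 in aSMA-TK controls, against 6.05, 6.43 and 6.89 in aSMA depleted tumours. Its differences were -0.19 ± 0.29 and -0.16 ± 0.29, and the groups overlap in both lines. In the numbering of the platform the 50 nearest probe sets with a single gene all belong to plus-strand genes, whereas Serpinh1 lies on the minus strand. The other probe set has only minus-strand genes around it, also 50 of 50. That probe set was at 5.14, 6.39 and 5.70 in FAP-TK controls and 6.04, 5.29 and 6.22 in FAP depleted tumours, a difference of 0.11. The sign for Serpinh1 in the FAP line therefore depends on the probe set. The other probe set was at 6.73, 7.10 and 6.63 in aSMA-TK controls, against 6.00, 6.25 and 7.05 in aSMA depleted tumours, a difference of -0.39. Whether the probe set used by the rule reads the antisense strand was not settled, so each of its values may not be the level of Serpinh1 mRNA. The 2 correlated at r = 0.91 over the 12 tumours, which share the same arrays.

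Whether depletion acted differently in the 2 lines was tested as the difference between the 2 effects, aSMA minus FAP. It was positive for 8 of 9 enzymes, against 46.4% of all genes, with a median of 0.68 against -0.03. Loxl3 had the largest value, 1.64 ± 0.55 (limma adjusted p = 0.829), followed by Lox at 1.60 ± 1.67 (adjusted p = 0.9) and Loxl1 at 1.28 ± 1.27. P4ha2 had the only negative one, -0.26 ± 0.28. By limma, 0 of the 9 enzymes and 0 of all genes (0.00%) were called, and 1 enzyme had an unadjusted p under 0.05, against 5.96% of all genes. The sizes of the effects in the 2 lines are thus not shown to differ.

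The control tumours of the lines were set side by side, aSMA-TK minus FAP-TK, though background and line cannot be told apart. Here limma called 2350 genes (7.80%) but 0 of the 9 enzymes. A positive difference was found for 5 of the 9 (58.2% of all genes). Loxl3 was lower in every aSMA-TK control, at -1.29 ± 0.39 (limma adjusted p = 0.0716), and it was the 1 enzyme with an unadjusted p under 0.05, against 28.2% of all genes. With the values as deposited, whose medians differ between the lines, its difference was -2.21 and its limma adjusted p 0.00104. Limma then called 12443 of all 30142 genes. Without FAP depleted 2 the difference of Loxl3 was -1.29 and its limma adjusted p 0.0307. FAP depleted 2 is in neither control group, so leaving it out changed only the shared estimate of spread. Serpinh1 was higher in every aSMA-TK control, by 0.44 ± 0.29 (adjusted p = 0.345). So 1 enzyme lay above without overlap (21.3% of all genes) and 1 below (13.8%).

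In the depleted tumours of the lines, aSMA minus FAP, 8 of 9 enzymes had a positive difference (55.2% of all genes), led by Loxl1 at 1.62 ± 0.90 (adjusted p = 0.296). The median was 0.65 against 0.04 over all genes. Limma called 0 of the 9 and 1562 genes (5.18%), and 0 enzymes had an unadjusted p under 0.05 (24.6% of all genes). No enzyme was free of overlap in either direction, against 18.2% of genes above and 14.8% below.

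The enzymes varied together from tumour to tumour. FAP depleted 2 had the lowest value for 7 of the 9, and FAP-TK control 1 for P4ha1 and P4ha2. These are 2 of the 3 arrays with a small control separation. The tumour aSMA depleted 3 was highest for Loxl1, Plod1, Plod2, P4ha3 and Serpinh1, and FAP depleted 3 for Lox and P4ha2. The mean over the 9 enzymes was 6.62, 7.86 and 7.74 in FAP-TK controls, 7.51, 6.15 and 8.21 in FAP depleted tumours, 7.42, 7.31 and 7.24 in aSMA-TK controls, and 7.31, 7.98 and 8.60 in aSMA depleted tumours. The aSMA-TK controls were close together, and the other groups spread by more than 1 log2 unit.

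**Figure D3:**
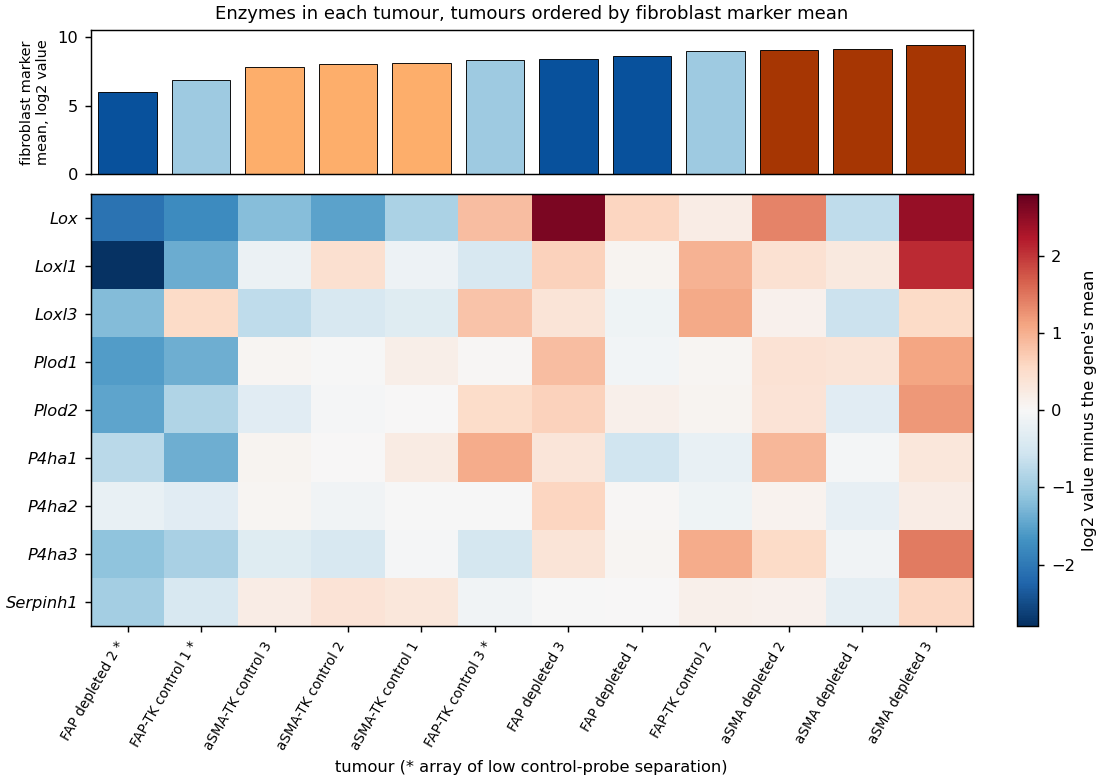
Lower panel, each enzyme's log2 value in each tumour minus its mean over the 12 tumours (colour scale, log2 units); upper panel, the mean log2 value of 8 non-collagen fibroblast markers, by which the tumours are ordered, with bars coloured by group. Asterisks mark the 3 arrays of small control separation. FAP depleted 2, at the left, is lowest for 7 of the 9 enzymes, and aSMA depleted 3, at the right, is highest for 5.

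All 36 pairs of enzymes had a positive Pearson r over the 12 tumours, from 0.23 for Loxl3 and P4ha1 to 0.91 for Loxl1 and Plod1, with a median of 0.69. Plod1 and Plod2 gave 0.90, and Lox and Plod2 0.88. These are descriptions: all values share the arrays, their background and their normalization. The median was 0.74 within the FAP line and 0.72 within the aSMA line, and 0.50 over the 9 arrays left without those of small control separation, where all 36 stayed above 0.

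The non-collagen fibroblast list, as measured, held Dcn, Lum, Pdgfrb, Thy1, Pdpn, Fbln1, Fbln2 and Mmp2. Pdgfra had no probe set of its own, and Vim, which is in the full fibroblast list, was not part of it. The mean of these 8 markers was 8.12, 8.06 and 7.86 in aSMA-TK controls, against 9.14, 9.07 and 9.45 in aSMA depleted tumours. There all 8 markers had a higher mean, by a median of 1.15. In the FAP line it was 6.88, 8.97 and 8.37 in controls and 8.59, 6.03 and 8.40 in FAP depleted tumours, and 7 of 8 markers had a lower mean. That direction turned without FAP depleted 2, from -0.40 to 0.42 in the mean level, and without FAP-TK control 2, to 0.0517. The markers and the enzymes did not go together in every tumour: in aSMA depleted 1 the marker mean was above all aSMA-TK controls, while of the enzymes only Lox and Plod1 were, and Plod2, P4ha1, P4ha2 and Serpinh1 lay below every control. With the marker mean as a covariate the median aSMA difference of the enzymes was -0.20 in place of 0.53. The marker mean did not overlap between the 2 aSMA groups, so covariate and group cannot be separated well there. The covariate had 1 slope for all 12 arrays, and within groups it spread most in the FAP line, as from 6.03 to 8.59 in FAP depleted tumours. FAP depleted 2 and FAP-TK control 1, the lowest there, are arrays of small control separation. The covariate is a level measured in the same RNA, and its part in the result was not tested further.

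Each enzyme was correlated with this marker mean over the 12 tumours, 9 relations in all. Loxl1 had r = 0.91 (permutation p = 0.00016, adjusted 0.00144; rho = 0.75), Plod1 0.89 (adjusted p = 0.00216), P4ha3 0.84 (adjusted p = 0.00216), Plod2 0.83 (adjusted p = 0.00216), Serpinh1 0.72 (adjusted p = 0.0169; rho = 0.31) and Lox 0.70 (adjusted p = 0.0148; rho = 0.77), by permutation tests. P4ha1 (0.60), Loxl3 (0.47) and P4ha2 (0.38) did not pass. By rank, 4 of the 9 passed. Without the 2 tumours farthest from the median marker level, FAP depleted 2 and FAP-TK control 1, r was lower for each enzyme, from -0.05 to 0.77. None passed, so no call held without those tumours. That fit has 10 tumours over a narrower range of the marker mean, which by itself can lower r. It therefore cannot show whether the relations rest on those tumours alone. P4ha3 still had r = 0.77 and Loxl1 0.69 there. The permutations over the 12 tumours took no account of line, group or array quality. Without the 3 arrays of small control separation, which include both of those tumours, none passed either, with r from -0.08 to 0.77. Within the FAP line 2 passed by exact permutation (Serpinh1, r = 0.98, adjusted p = 0.0125, and Loxl1, r = 0.96, adjusted p = 0.0187), and within the aSMA line, which holds neither of those tumours, none did. There r was 0.85 for Plod1, 0.82 for Lox and 0.80 for P4ha3, and -0.13 for Serpinh1.

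**Figure D4:**
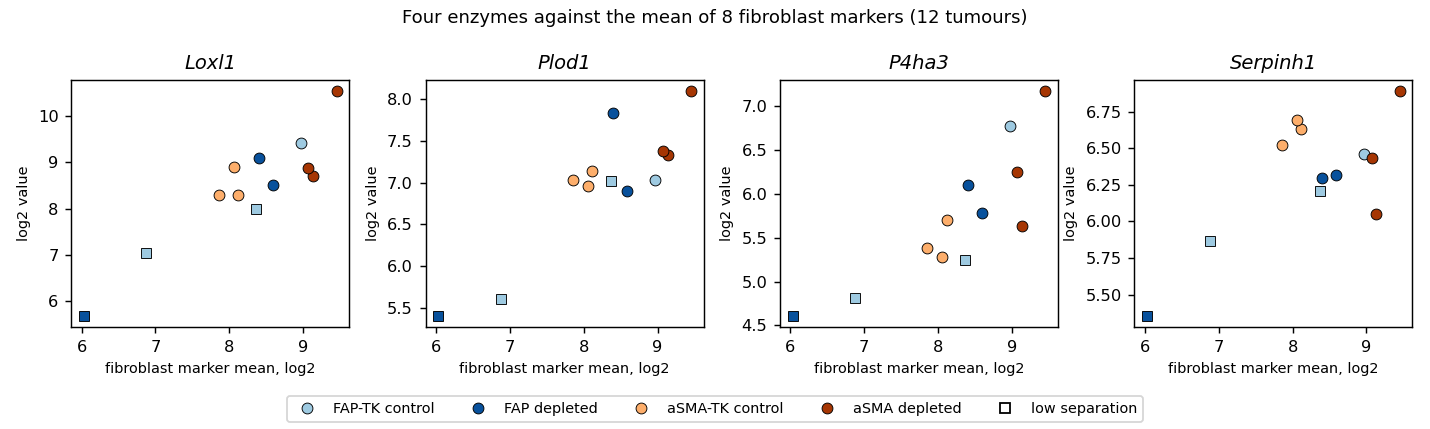
Normalized value of Loxl1, Plod1, P4ha3 and Serpinh1 (vertical axes, log2 units) against the mean of 8 non-collagen fibroblast markers (horizontal axes, log2 units), 1 point per tumour coloured by group, with squares for the 3 arrays of small control separation. FAP depleted 2 and FAP-TK control 1 sit alone at the low end of the marker mean, and r over the 12 tumours is 0.91, 0.89, 0.84 and 0.72.

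Among 3926 genes above the negative controls on at least 6 arrays, the ones most like the mean of the enzymes over the 12 tumours were Aebp1 (r = 0.97), Nid1 (0.93), Gm2399 (0.92), Thbs1 (0.92) and Fstl1 (0.91). Aebp1 encodes a collagen-binding carboxypeptidase-like protein, Nid1 the basement membrane linker nidogen, and Thbs1 a thrombospondin. For Lox alone they were Aebp1 (0.95), Postn (0.91), a matricellular protein of fibroblasts, and Bmp1 (0.90), the protease that trims procollagen and activates lysyl oxidase. For Plod2 they were Aebp1 (0.96), Nid1 (0.91) and Fstl1 (0.89). Serpinh1 was instead nearest to Txndc5 (0.96), an endoplasmic reticulum disulphide isomerase, Rpn1 (0.94), a subunit of the oligosaccharyltransferase, and Gm17383 (0.93). These r values were chosen as the highest and carry no test.

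The wider collagen pathway was read from lists set beside the enzymes. Of 20 further modification and folding genes measured, 13 had a higher and 7 a lower mean in FAP depleted tumours, and 14 and 6 in tumours labelled aSMA depleted, with medians of 0.03 and 0.13. None was called by limma in either. Fkbp7, a peptidyl-prolyl isomerase of the endoplasmic reticulum, was at 7.43, 7.42 and 7.38 in aSMA-TK controls, against 8.55, 8.40 and 8.94 in aSMA depleted tumours, a difference of 1.22 ± 0.33 (limma adjusted p = 0.944). It had a difference of -0.71 ± 0.33 in the FAP line. P3h2, a prolyl 3-hydroxylase, was at 5.93, 5.91 and 5.67 against 7.41, 6.53 and 6.48 in the aSMA line, and -0.18 ± 0.31 apart in the FAP line. Both were higher without overlap in the aSMA line, as were 7.43% of all genes. They were picked as the 2 of smallest p in that direction, so this adds no support. Fkbp7 exceeded the 95th percentile of negative control probe sets on 1 array and P3h2 on 0. Loxl4, the remaining lysyl oxidase, was 0.83 ± 0.30 apart in the FAP line, and P3h4 0.27 ± 0.20. Neither Loxl4 nor P3h4 exceeded that percentile on any array. Hsp90b1 had a difference of -0.30 ± 0.27 and Colgalt1 of -0.39 ± 0.44 in the aSMA line.

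Of 18 export and processing genes, 7 were higher and 11 lower in FAP depleted tumours, and 12 higher and 6 lower in tumours labelled aSMA depleted, with none called. Creb3l1, a transcription factor of secretory cells, differed by -1.34 ± 0.59 in the FAP line and Adamts3, a procollagen N-proteinase, by -0.34 ± 0.13. Mia3 and Mia2, which help collagen leave the endoplasmic reticulum, differed by 0.44 ± 0.27 and 0.75 ± 0.54. Fmod, a proteoglycan that binds fibrillar collagen, was at 5.20, 4.85 and 5.47 in controls and 6.98, 5.73 and 6.55 in the depleted tumours of the aSMA line, a difference of 1.25 ± 0.52. Adamts3 differed there by 0.28 ± 0.13, Mia3 by -0.16 ± 0.27 and Sec13 by -0.13 ± 0.33. Adamts3, Fmod and Sec13 exceeded the 95th percentile of negative control probe sets on 0 arrays, so their values are low. Mia3 did on 8, and Mia2 and Creb3l1 on 11.

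The collagens on which the enzymes act showed no call either: of 14 chains, 8 were higher and 6 lower in FAP depleted tumours (median 0.08), and 9 and 5 in the aSMA line (median 0.09). Col1a2 differed by -0.92 ± 0.87 in the FAP line and 0.51 ± 0.87 in the aSMA line, Col4a2 by 0.65 ± 0.67 and 0.33 ± 0.67. Col4a1 differed by 0.64 ± 0.67 and Col6a1 by -0.39 ± 0.44 in the FAP line, and Col6a3 by -0.38 ± 0.43 and Col11a2 by -0.11 ± 0.08 in the aSMA line. Col6a1, Col6a3 and Col11a2 exceeded the 95th percentile of negative control probe sets on 0 arrays. Col4a1 did on 1, Col4a2 on 2 and Col1a2 on 11. The fibroblast marker list used further on shares 3 of these chains. Elastic fibre genes, also crosslinked by lysyl oxidases, had 4 of 10 higher in FAP depleted tumours and 10 of 10 in the aSMA line, with medians of -0.33 and 0.50. Their mean level in the FAP line differed by -0.21, by 0.20 without FAP depleted 2 and by 0.11 without FAP-TK control 2. Fbln1 and Fbln2 are also among the fibroblast markers. Of the elastic fibre genes, Fbln2 differed by 1.12 ± 0.82, Ltbp4 by 0.10 ± 0.25, Fbn2 by -0.97 ± 0.56 and Fbln1 by -0.36 ± 0.28 in the FAP line. Mfap2 differed by 0.70 ± 0.44 and Ltbp4 by 0.50 ± 0.25 in the aSMA line. Fbln2 exceeded that percentile on 3 arrays, and Ltbp4, Fbn2, Fbln1 and Mfap2 on 0.

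Hypoxia target genes are relevant because the hydroxylases depend on oxygen. In FAP depleted tumours 17 of 19 had a higher mean (median 0.38), against 59.9% of all genes. In tumours labelled aSMA depleted 15 of 19 did (median 0.32), against 53.2%, and none was called in either. The mean level of the list differed by 0.49 in the FAP line, and by 0.10 without FAP depleted 3. In the aSMA line it differed by 0.46, and by 0.25 without aSMA depleted 2, a check added after the values were seen. Pgk1, a glycolytic enzyme, differed by 1.32 ± 0.45 and 0.84 ± 0.45, and Ndrg1 by 1.36 ± 0.55 in the FAP line. There Ankrd37 differed by -0.05 ± 0.37 and Pfkfb4 by -0.01 ± 0.25. Adm differed by 1.73 ± 0.97, Car9 by -0.51 ± 0.49 and Ero1a by -0.21 ± 0.48 in the aSMA line. Adm, Ankrd37 and Pfkfb4 exceeded the 95th percentile of negative control probe sets on 0 arrays. Ndrg1 did on 3, Car9 and Ero1a on 9 and Pgk1 on 12. The mean over the list was highest in FAP depleted 3, at 9.97, the tumour with the highest Lox and P4ha2. P4ha1 was highest in FAP-TK control 3 and Plod2 in aSMA depleted 3, where the list mean was 8.77 and 8.69. Of the genes for ascorbate and 2-oxoglutarate supply, 6 of 7 were higher in the FAP line and 5 of 7 in the aSMA line.

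No marker of another cell type was called by limma in either line, and the counts that follow are of group means. In FAP depleted tumours, 6 of 6 acinar markers had a higher mean (median 2.32), 10 of 10 ductal markers (0.89) and 4 of 6 endothelial markers (0.12), while 11 of 12 fibroblast markers (-0.55) and 7 of 8 macrophage markers (-0.48) had a lower one. In the tumours labelled aSMA depleted, 12 of 12 fibroblast markers (1.07), 8 of 8 smooth muscle markers (0.79), 8 of 8 macrophage markers (0.57) and 6 of 6 endothelial markers (0.37) had a higher mean, and 4 of 6 acinar markers (-1.06) a lower one. Some of these directions rest on single tumours, as leaving out each array showed, a check of the lists added after their values were seen. In the FAP line the mean level of the fibroblast list differed by -0.54, and by 0.31 without FAP depleted 2, and that of the macrophage list by -0.63, by 0.46 without it and by 0.0794 without FAP-TK control 2. The acinar mean level was 11.16, 10.88 and 13.71 in aSMA-TK controls, against 6.20, 12.45 and 14.59 in aSMA depleted tumours. Without aSMA depleted 1 its difference went from -0.84 to 1.60, and without aSMA-TK control 3 to 0.0575. Their part in the differences of the enzymes was not tested.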

How the data were processed

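Total RNA from 12 mouse pancreas tumours was measured on 12 one-colour arrays, 3 per group. The deposited table holds the authors' processed log2 values for 72688 probe sets, and the log2 scale was read from the values. How the authors corrected background and normalized is not given in the sources used here; limma is named, with no version, per the submitters' processing notes. The label protocol names a kit for Illumina arrays, while the probe set identifiers are of an Affymetrix type.

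After 6732 control probe sets were left out, 65956 were quantile normalized. Of 32750 listed in the platform annotation, 30604 had 1 symbol and 2146 had several. The other 33206 were not listed. Gene symbols were updated with the RefSeq table of GRCm38.p6 (827 changed). The probe set of highest mean was kept for 355 genes, leaving 30142. Groups were fitted with 1 mean each over all 12 arrays in limma 3.58.1 (R 4.3.3), with two-sided moderated tests and Benjamini-Hochberg adjustment over all genes at 0.05. The fit was tested on simulated data. Correlations used scipy 1.17.1. The number of arrays limits the precision.

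The 10 enzymes and the gene lists were chosen with earlier results of these data known. All enzymes were named, and from each pathway list the 2 genes of smallest p per direction and depletion. Genes most alike were those of highest r among genes above background on at least 6 arrays. Alternatives covered normalization, probe set choice, a filter on dim genes, the spread model, array quality and leaving out each array.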

Additional observations from a re-analysis of the deposited data

How the results depend on the processing

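No enzyme was called in either depletion or in the difference between effects under any alternative run. The direction of several small differences did change. With the values as deposited, the control comparison gave -0.58 for Loxl1, -0.43 for Plod1, -0.62 for P4ha1, -0.73 for P4ha2 and -0.48 for Serpinh1, and the depleted comparison -0.39 for Loxl3, -0.0274 for Plod2 and -0.27 for Serpinh1. With median centring the control comparison gave -0.13 for Loxl1, -0.17 for P4ha1, -0.28 for P4ha2 and -0.0309 for Serpinh1. With array weights the FAP differences were 0.40 for Loxl1, 0.40 for P4ha3 and 0.0505 for Serpinh1, the control ones -0.34 for P4ha1 and 0.12 for P4ha3, and the difference between effects -0.13 for Serpinh1. With the control separation as a covariate, the FAP difference of Plod1 was -0.15, the control ones -1.47 for Loxl1, -0.49 for Plod1, -0.086 for P4ha2 and -0.0682 for Serpinh1, and the depleted ones -0.55 for Lox and -0.11 for Loxl3. Without the 3 arrays of small separation, the FAP differences were 0.31 for Plod2 and 0.10 for P4ha1, the control one -0.93 for Loxl1, the depleted ones -0.59 for Lox and -0.10 for Loxl3, and the difference between effects -0.0031 for Serpinh1. The mean of the probe sets gave -0.23 for Serpinh1 in the difference between effects, and its other probe set 0.11 in the FAP line and -0.50 in the difference, chosen after seeing the data.

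With the fibroblast markers as a covariate, added after seeing the data, the FAP differences were 0.0875 for Loxl1, 0.13 for Plod2, 0.0192 for P4ha1 and 0.15 for P4ha3. The aSMA ones were -0.59 for Loxl1, -0.0232 for Loxl3, -0.37 for Plod1, -0.32 for Plod2, -0.20 for P4ha1 and -0.17 for P4ha2. The control one was 0.0115 for Plod2. The depleted ones were -1.46 for Lox, -0.26 for Loxl1, -0.34 for Loxl3, -0.30 for Plod1, -0.43 for Plod2, -0.17 for P4ha3 and -0.0903 for Serpinh1. The differences between effects were -0.58 for Lox, -0.67 for Loxl1, -0.84 for Plod1, -0.44 for Plod2, -0.22 for P4ha1, -0.0504 for P4ha3 and -0.55 for Serpinh1. The correlation with the markers was -0.13 for Serpinh1 within the aSMA line, -0.0543 for P4ha2 and -0.0234 for Serpinh1 without the 2 farthest tumours, and -0.0697 and -0.0835 without the 3 arrays. The cause of these changes was not tested.

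Leaving out each array in turn, the FAP differences ran from -0.50 to 1.86 for Lox, -1.06 to 0.64 for Loxl1, -0.40 to 0.82 for Plod1, -0.59 to 0.47 for Plod2, -0.74 to 0.47 for P4ha1, -0.51 to 0.47 for P4ha3 and -0.35 to 0.13 for Serpinh1. The aSMA ones ran from -0.0555 to 0.16 for P4ha2 and -0.37 to 0.0459 for Serpinh1, the control ones from -0.21 to 0.97 for Loxl1, -0.41 to 0.27 for Plod2, -0.31 to 0.90 for P4ha1 and -0.56 to 0.42 for P4ha3, the depleted ones from -0.59 to 1.77 for Lox, -0.10 to 0.69 for Loxl3 and -0.30 to 0.11 for P4ha2, and the differences between effects from -0.26 to 0.95 for Plod1, -0.18 to 1.03 for P4ha1 and -0.29 to 0.23 for Serpinh1. Called genes ran from 0 to 4 in the FAP line (4 without FAP depleted 2), 0 to 16 in the aSMA line (16 without aSMA depleted 3), 0 to 1 in the difference, 508 to 3130 in the controls and 374 to 1874 in the depleted tumours. Called enzymes ran from 0 to 1 in the controls (Loxl3 without FAP depleted 2).

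Genes called in the FAP line were 13 without the 3 arrays and 1 with the fibroblast covariate. In the controls they were 12443 as deposited, 5769 with median centring, 0 above the negative controls only, 212 with only the groups compared, 6658 with array weights, 1012 with the separation covariate, 357 without the 3 arrays, 282 with the filter on background probe sets, 4237 with the fibroblast covariate and 5104 at an adjusted p under 0.1. Called enzymes there were 2 as deposited and 1 with median centring, array weights, the separation covariate, the fibroblast covariate and the threshold of 0.1. In the depleted tumours, called genes were 14287 as deposited (1 enzyme, P4ha2), 3391 with median centring, 18 above the negative controls, 1 with only the groups compared, 4502 with array weights, 634 without the 3 arrays, 134 with the background filter, 270 with the fibroblast covariate and 3501 at 0.1. The filter on negative controls keeps only Lox and Loxl1. No paired analysis was possible because the labels give the groups no shared replicate numbers.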
